A study of Arabidopsis thaliana with 15 samples.

Results

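The dormancy-associated gene family of Arabidopsis thaliana, also called the DRM1/ARP (auxin-repressed protein) family, was followed through 15 RNA-seq libraries of rosette leaves. It has 5 members among the 37336 genes counted, taken by locus identifier: AT1G28330 (DRM1, listed in RefSeq as DYL1), AT2G33830 (DRM2), AT1G56220, AT1G54070 and AT5G44300. The family was chosen on earlier results of the same libraries, in which the counts of AT2G33830 differed strongly between genotypes. The genotype differences of AT2G33830 are therefore given as a description without a test, whereas the other 4 genes are members by family alone. RNA with a poly(A) tail was taken from rosette leaf 5 at day 21, from plants in 16 h of light at 22 °C and 50% humidity. Every genotype, WT included, is labelled with the transgene pAGL61::DME, whose promoter drives expression in the ovule's central cell. WT are segregants with DME, ROS1, DML2 and DML3 intact (4 libraries). The dme plants carry dme-2 (4 libraries), the rdd plants carry ros1-3, dml2-1 and dml3-1 (4 libraries), and the drdd plants carry all of these alleles (3 libraries, lettered B, C and D).

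DME, ROS1, DML2 and DML3 are DNA glycosylases that cut 5-methylcytosine out of DNA, so that an unmethylated cytosine can be put in its place. DRM1/ARP proteins are small and their biochemical role is not known. Their transcripts are abundant in dormant axillary buds and decline when buds grow out, and several are repressed by auxin and raised by darkness or lack of sugar. AT2G33830 is used as a marker transcript of SnRK1, the kinase that switches plant cells to an energy-saving state when sugar is short.

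Libraries held 8730340 to 23302135 counts assigned to genes, with a median of 12178873, and 18598 genes passed the count filter. Expression is shown in CPM, which are counts divided by the TMM-scaled size of the library, with SD, for n = 4 libraries of WT, dme and rdd and n = 3 of drdd. Of the mutated genes, DML2 averaged 26.4 ± 4.41 CPM (WT), 26.6 ± 1.96 (dme), 6.96 ± 2.18 (rdd) and 8.99 ± 2.29 (drdd). DME, ROS1 and DML3 kept counts in all genotypes, though not at equal levels. DML3 averaged 6.51 CPM (WT), 7.07 (dme), 3.23 (rdd) and 3.13 (drdd). Between drdd and dme DML3 fell (log2 −1.16, SE 0.28, adjusted p = 0.047 in edgeR), a call lost under 14 of 20 alternatives. The log2 fold change of ROS1 against WT was −0.47 in rdd and −0.39 in drdd. That of DME was −0.51 in dme and −0.28 in drdd. Neither ROS1 nor DME passed an adjusted p of 0.05 in edgeR against WT. DESeq2 called 2 of the 4 mutated genes in rdd and 2 in drdd against WT. The counts of these 4 genes include reads on either side of an insertion, and those of DME can include the transgene. The 6 mesophyll markers summed to 26094 to 51246 CPM in every library, whereas the 7 markers of shoot meristem and floral organs summed to at most 1.06 CPM. The labels do not say whether replicates were separate plants, and p-values here reflect only library-to-library spread, which may be technical.

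The 300 bases before the annotated start of the 3 genes with appreciable counts are shown because methylation, the mark the mutated enzymes act on, sits largely on CG dinucleotides in plants. They were read from RefSeq assembly TAIR10.1 on the strand of the gene, 5′ to 3′, with each CG in capitals. The window of AT2G33830 is chr2:14310609-14310908 (minus strand), that of AT1G28330 is chr1:9935441-9935740 (minus strand) and that of AT1G56220 is chr1:21042651-21042950 (plus strand).
AT2G33830: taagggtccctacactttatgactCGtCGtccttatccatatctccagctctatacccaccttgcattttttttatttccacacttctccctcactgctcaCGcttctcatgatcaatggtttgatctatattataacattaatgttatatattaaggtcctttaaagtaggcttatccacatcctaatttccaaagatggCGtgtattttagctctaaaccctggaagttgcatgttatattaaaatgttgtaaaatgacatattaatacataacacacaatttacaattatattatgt
AT1G28330: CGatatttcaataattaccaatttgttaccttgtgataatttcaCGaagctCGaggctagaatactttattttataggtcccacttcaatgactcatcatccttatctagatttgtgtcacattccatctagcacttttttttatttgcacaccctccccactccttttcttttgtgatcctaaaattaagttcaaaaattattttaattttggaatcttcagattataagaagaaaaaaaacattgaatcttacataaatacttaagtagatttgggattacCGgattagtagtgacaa
AT1G56220: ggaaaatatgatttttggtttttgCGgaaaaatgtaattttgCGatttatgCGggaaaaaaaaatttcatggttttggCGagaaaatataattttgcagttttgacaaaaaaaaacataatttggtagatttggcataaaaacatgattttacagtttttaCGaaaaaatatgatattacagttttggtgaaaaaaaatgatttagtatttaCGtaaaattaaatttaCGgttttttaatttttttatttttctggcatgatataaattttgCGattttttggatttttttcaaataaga
AT2G33830 and AT1G28330 have 4 CG each in this window and AT1G56220 has 8, against a median of 6 and quartiles of 3 and 8 over 27438 such windows. Methylation was not analysed here, and the build behind the counts is not given in the sources used here, so the windows describe the reference alone.

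The letters were searched on both strands for 7 motifs of sugar, auxin, bud and clock control. TTATCC, the sugar response element known from outgrowing axillary buds, lies in the window of AT2G33830 at −268 and −127 from the annotated start, and 14.7% of all windows hold it. TATCCA, known from rice amylase promoters, overlaps both of these copies as TTATCCA, at −267 and −126, and 16.2% of windows hold it. GGNCCC, the core bound by TCP factors, is at −297 and −296 in AT2G33830, as the same stretch read on either strand, and at −224 in AT1G28330 (8.2% of windows). ACTCAT, bound by group S bZIP factors, is at −209 in AT1G28330 (14.8% of windows). The auxin response element TGTCTC had no match in these 3 windows, nor had the G-box, spelled CACGTG, or the evening element of the clock, spelled AAAATATCT, which says only that the letters are not there.

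AT2G33830 stood at high levels in WT and dme, far lower in rdd and lowest in drdd. It encodes a protein of 108 residues and is annotated at chr2:14308754-14310608 on the minus strand, with 2 transcripts and no overlapping gene. In WT it had 218, 166, 140 and 123 CPM in libraries A to D. In dme it had 149, 84.4, 117 and 124 CPM in libraries A to D. These WT and dme libraries overlap.

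In rdd the same gene had 9.39, 11.9, 7.83 and 13.3 CPM in libraries A to D. In drdd it had 0.462, 1.08 and 0.885 CPM in libraries B, C and D, from 9, 11 and 9 counts. Every rdd library was below every WT library, which held for 5.16% of all tested genes. Every drdd library was below every rdd library, which held for 6.34%. Nothing is read from this, since these differences led to the choice of the family. The counts in drdd were above the floor of 3 counts, which is 0.167 to 0.311 CPM in these libraries, and the exact Poisson 95% intervals, which cover counting error only, ran from 0.211 to 1.94 CPM. In bulk leaf RNA, fewer cells of a type and less RNA per cell cannot be told apart.

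**Figure D1:**
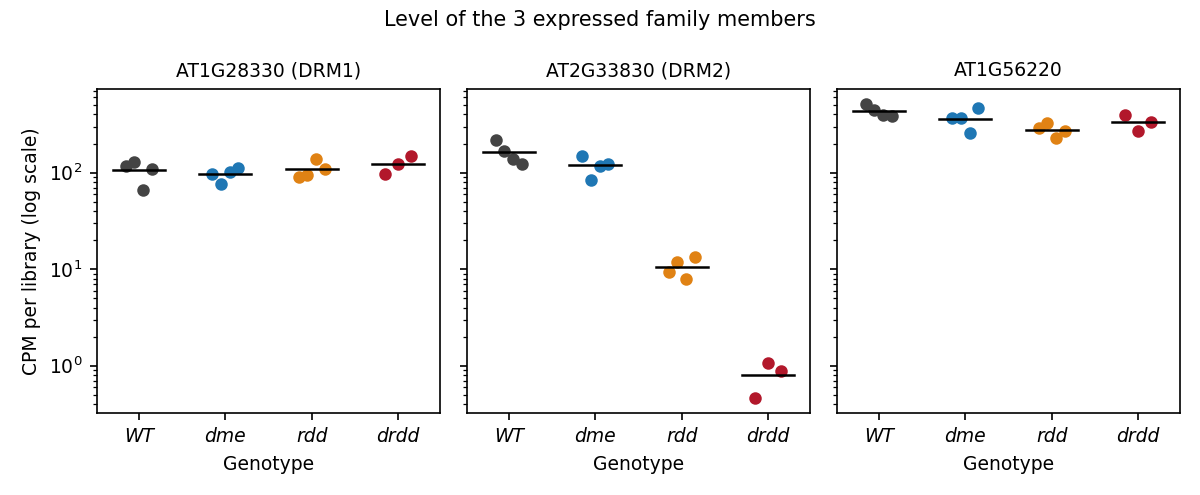
CPM per library on a log axis for AT1G28330 (DRM1), AT2G33830 (DRM2) and AT1G56220, by genotype; points are libraries and bars are means. AT2G33830 goes from a mean of 162 CPM in WT to 10.6 in rdd and 0.809 in drdd, while both relatives stay within 66 to 517 CPM in all 15 libraries.

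AT2G33830 averaged 162 ± 41.7 CPM (WT), 119 ± 26.5 (dme), 10.6 ± 2.47 (rdd) and 0.809 ± 0.316 (drdd). Against WT the log2 fold change was −0.45 (SE 0.22) in dme, −3.92 (SE 0.25) in rdd and −7.72 (SE 0.37) in drdd. The rdd mean was thus 15.2-fold below WT. Drdd lay a further 13.1-fold below rdd (log2 −3.80, SE 0.35) and was at −7.27 (SE 0.37) against dme. These comparisons share libraries and are not independent of one another. Over all 18598 tested genes, AT2G33830 had the log2 fold change of rank 45 from the lowest in rdd, rank 15 in drdd and rank 28 between drdd and rdd. Among the 11888 with at least 10 CPM in WT, where this gene is high, the ranks were 14, 6 and 3. Nothing is read from these ranks, since the differences of AT2G33830 led to the choice of the family.

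The drdd minus rdd difference sets the dme allele in a background without ROS1, DML2 and DML3, and the dme minus WT difference sets it in an intact one. For AT2G33830 the former was −3.80 and the latter −0.45 on the log2 scale, an interaction of −3.35 (SE 0.41). For AT1G28330 the corresponding values were 0.18 and −0.13, with an interaction of 0.31 (SE 0.30, adjusted p = 0.793 in edgeR). For AT1G56220 they were 0.26 and −0.26, with an interaction of 0.52 (SE 0.26, adjusted p = 0.565 in edgeR). The authors' deposited tables give AT2G33830 a log2 fold change of −0.44 (dme), −3.93 (rdd) and −7.74 (drdd) relative to WT, and −3.80 from rdd to drdd.

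Of the 5 members, 3 passed the count filter. At an adjusted p under 0.05 over all 18598 genes, no member was called in dme against WT, where 0.0108% of genes were called (2 genes, 841 at an unadjusted p under 0.05, and 8 by DESeq2). In that comparison 0 members had an unadjusted p under 0.05 and 0 were called by DESeq2. AT2G33830 was the 1 member called in each other comparison. Relative to WT the background called was 1.08% of genes in rdd and 1.35% in drdd. It was 0.468% for drdd minus rdd, 2.26% for drdd minus dme and 0.108% for the interaction. Nothing is read from these counts for AT2G33830, since its differences led to the choice of the family.

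**Figure D2:**
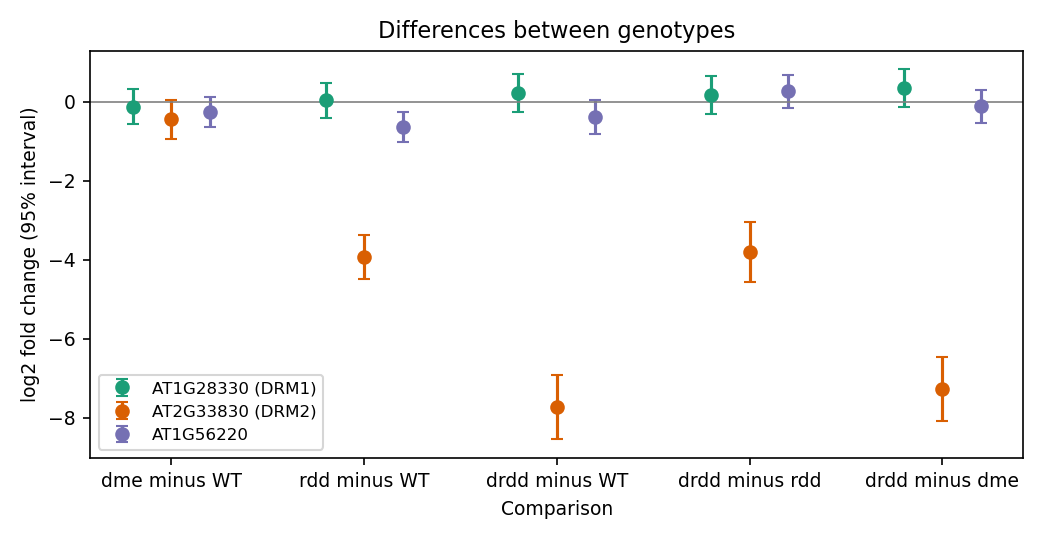
Log2 fold change with its 95% interval for the 3 members that passed the count filter, in 5 comparisons that share libraries. AT2G33830 lies at −3.92 in rdd and −7.72 in drdd against WT, whereas the estimates of AT1G28330 range from −0.13 to 0.34 and those of AT1G56220 from −0.64 to 0.26.

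AT1G28330 (DRM1), the founding member of the family, is the closest relative of AT2G33830 and encodes 132 residues. The proteins are identical at 65.4% of 107 aligned residues and their coding sequences at 78.1%, with a longest shared run of 19 bases. DRM1 had 118, 129, 66 and 109 CPM in WT libraries A to D. It had 97.1, 76.8, 101 and 111 CPM in dme, and 90.5, 95.2, 137 and 108 CPM in rdd. In drdd it had 96, 123 and 147 CPM in libraries B, C and D. All 4 genotypes overlap, with WT C the lowest library of all.

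DRM1 averaged 106 ± 27.7 CPM (WT), 96.5 ± 14.4 (dme), 108 ± 20.8 (rdd) and 122 ± 25.7 (drdd). The log2 fold change against WT was 0.03 in rdd (95% interval −0.42 to 0.47, adjusted p = 0.957 in edgeR) and 0.21 in drdd (−0.27 to 0.69, adjusted p = 0.709 in edgeR). In dme it was −0.13 (−0.57 to 0.32, adjusted p = 0.999 in edgeR). Without WT C the rdd estimate was −0.14 and without rdd C it was −0.11, so its sign rests on single libraries.

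AT1G56220, a longer family member of 165 residues and 34.7% identity to AT2G33830, had the highest counts of the family. It had 517, 441, 392 and 386 CPM in WT libraries A to D and 365, 370, 255 and 463 CPM in dme. In rdd it had 293, 323, 228 and 269 CPM, and in drdd 396, 267 and 336 CPM in libraries B, C and D. Each rdd library was below each WT library, the nearest being 1.19-fold apart, while dme and drdd both overlap WT. Of all tested genes, 5.16% were likewise lower in every rdd library than in any WT library. AT2G33830 was lower in every drdd library than in any WT, rdd or dme library, as were 6.46%, 6.34% and 7.59% of tested genes respectively, and nothing is read from this, since its differences led to the choice of the family.

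The mean of AT1G56220 was 434 ± 60.5 CPM in WT and 278 ± 40.3 in rdd, a log2 fold change of −0.64 (SE 0.18, adjusted p = 0.111 in edgeR), which did not pass the threshold. DESeq2 on the same counts gave an adjusted p of 0.0232, and the authors' deposited table gives −0.65 (SE 0.15) with an adjusted p of 0.00105. In edgeR the adjusted p was 0.0473 when dme C was left out. Over all alternatives it ranged from 0.0232 to 0.335 at estimates of −0.72 to −0.55. The means were 363 ± 85.1 CPM in dme (log2 −0.26, adjusted p = 0.974 in edgeR) and 333 ± 64.2 in drdd (log2 −0.38, 95% interval −0.81 to 0.04, adjusted p = 0.39 in edgeR). AT1G56225, annotated on the opposite strand across its 3′ end, had 0 counts in every library.

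The remaining members were near or below detection in these leaves. AT1G54070, whose protein is 50.5% identical to that of AT1G56220, had 19 counts in all, spread over 7 of 15 libraries. WT had 2 of these counts, dme 0, rdd 12 and drdd 5, and its highest library was rdd B with 0.418 CPM. AT5G44300, 59.8% identical to AT2G33830, had 0 counts in all 15 libraries, which allows a level of up to 0.0158 CPM over the pooled libraries, for counting error only. Neither gene passed the count filter. With no filter AT1G54070 was called in 0 of 6 comparisons in edgeR, with 1 at an unadjusted p under 0.05, drdd against dme (unadjusted p = 0.0386, adjusted p = 0.353 in edgeR), where dme had 0 counts.

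Per kilobase of coding sequence, AT1G56220 led the family in WT with 872 ± 121 CPM, followed by AT2G33830 with 495 ± 128 and AT1G28330 with 264 ± 69.4. The libraries of neighbours in this order did not overlap, with ranges of 775 to 1038, 376 to 668 and 165 to 324 CPM per kilobase. Per kilobase of exon the order in WT was the same, with means of 232, 145 and 67.5 CPM. In dme the range of AT2G33830, 258 to 455 CPM per kilobase coding, overlapped that of AT1G28330, 193 to 279. Per kilobase of exon these dme ranges did not overlap, at 75.4 to 133 and 49.1 to 71.2 CPM. In rdd and drdd AT2G33830 came last of the 3, with 32.5 ± 7.55 and 2.48 ± 0.968 CPM per kilobase coding, and AT1G28330 came after AT1G56220.

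The family summed to 701 ± 118 CPM (WT), 578 ± 98 (dme), 397 ± 24.4 (rdd) and 456 ± 56.2 (drdd). AT2G33830 made up 23.1% of this sum in WT and 20.5% in dme, but 2.67% in rdd and 0.178% in drdd. AT1G56220 made up 61.9% in WT and 73% in drdd. The ratio of AT2G33830 to AT1G28330 CPM was 1.13 to 2.12 in WT libraries and 1.1 to 1.53 in dme libraries. It was 0.0572 to 0.125 in rdd and 0.00481 to 0.00882 in drdd. Both genes are read from the same library in this ratio, so it does not depend on scaling between libraries.

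**Figure D3:**
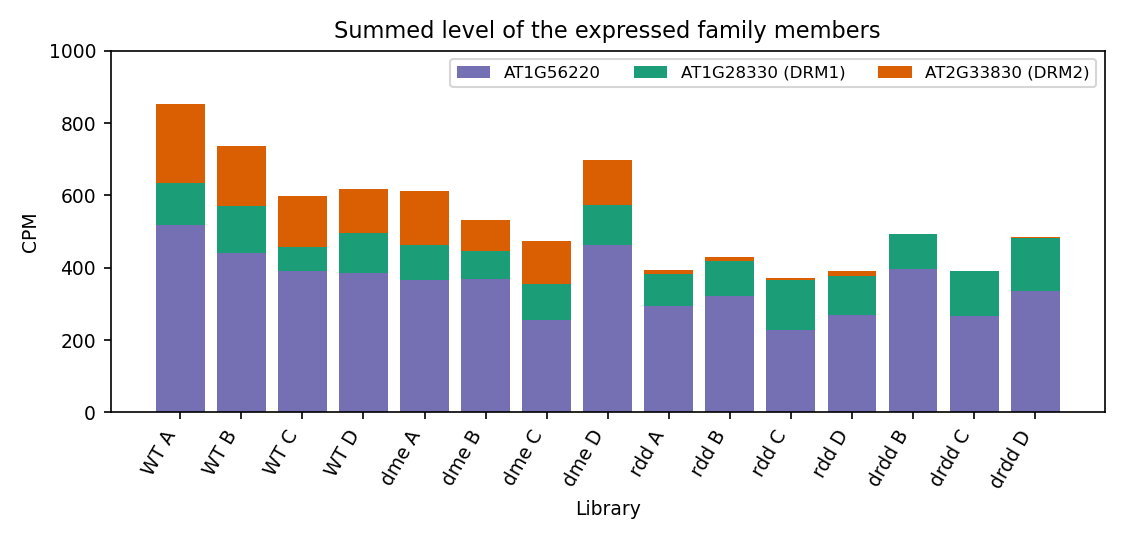
Stacked CPM of AT1G56220, AT1G28330 and AT2G33830 in each of the 15 libraries. The AT2G33830 part makes up 23.1% of the family in WT on average and is too thin to see in drdd at 0.178%, while the other parts remain.

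Levels of the members were compared across libraries in 3 pairs, those with AT2G33830 over WT and dme only, since its rdd and drdd libraries lie apart. Over all 15 libraries the log2 CPM of AT1G28330 and AT1G56220 had a Pearson r of −0.143 (permutation p = 0.611, adjusted 0.611) and a Spearman rho of −0.068 (permutation p = 0.81, adjusted 0.81). Without WT C and dme B r was −0.015, and with genotype means removed, since WT and rdd of AT1G56220 do not overlap, it was −0.080. Over the 8 WT and dme libraries AT2G33830 and AT1G28330 had r = 0.507 (exact permutation p = 0.205, adjusted 0.308) and rho = 0.524 (exact permutation p = 0.197, adjusted 0.295), and r was 0.536 without WT C and dme B. AT2G33830 and AT1G56220 had r = 0.551 (exact permutation p = 0.143, adjusted 0.308) and rho = 0.619 (exact permutation p = 0.115, adjusted 0.295), and r was 0.468 without WT A and dme B. No pair passed the threshold, two-sided.

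The genes whose log2 CPM followed AT2G33830 most closely over the 15 libraries were AT5G35480 (r = 0.973), AT4G13495 (r = 0.972), AT4G13575 (r = 0.969), AT3G46370 (r = 0.961) and AT5G17600 (r = 0.942). AT5G35480, for example, had 59.7 ± 9.4 CPM (WT), 30.7 ± 5.85 (dme), 6.98 ± 1.6 (rdd) and 1.63 ± 0.666 (drdd). AT4G13575 had 66 ± 10.9 CPM (WT), 85.9 ± 18.7 (dme), 15.4 ± 1.55 (rdd) and 3.38 ± 2.04 (drdd). They were picked for this likeness over all libraries, genotype differences included, so the r values are a description. With genotype means removed, none of the 5 was among the 5 closest, which were led by AT1G78690 (r = 0.872) and PTB2, a splicing regulator (r = 0.817). The closest to AT1G56220 was AT2G36320 (r = 0.959), with 40 ± 4.46 CPM (WT), 31.1 ± 11.7 (dme), 17.1 ± 5.61 (rdd) and 23.3 ± 4.36 (drdd), and it was also among the 5 closest by deviations (r = 0.925). The closest to AT1G28330 was AT5G06700 (r = 0.788).

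None of the tested genes next to AT2G33830 in the reference was called. Of the 10 nearest, 5 on each side, 7 passed the count filter and 0 were called in edgeR or DESeq2 in any comparison. At an unadjusted p under 0.05 there were 0 in rdd and 1 in drdd, and the lowest adjusted p relative to WT was 0.358 in rdd and 0.316 in drdd. Their log2 fold changes ran from −0.63 to 0.22 in rdd and from −0.63 to 0.28 in drdd. MBAC1, a mitochondrial basic amino acid carrier and the nearest on one side, had 11.9 ± 1.81 CPM in WT and 11.2 ± 1.71 in rdd, with a log2 fold change of −0.24 in drdd. FES1, which promotes expression of the flowering repressor FLC and is the nearest on the other side, had 8.78 ± 0.234 CPM in WT, 8.54 ± 1.43 in rdd and 9.16 ± 1.27 in drdd. SPL3, a promoter of flowering targeted by miR156, had 18.1 ± 5.08 CPM in WT and 17.7 ± 3.95 in drdd. AT2G33830 lies 997 kb from ROS1, one of the genes mutated in rdd and drdd, on the same chromosome, and the part of that position in its level was not tested.

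**Figure D4:**
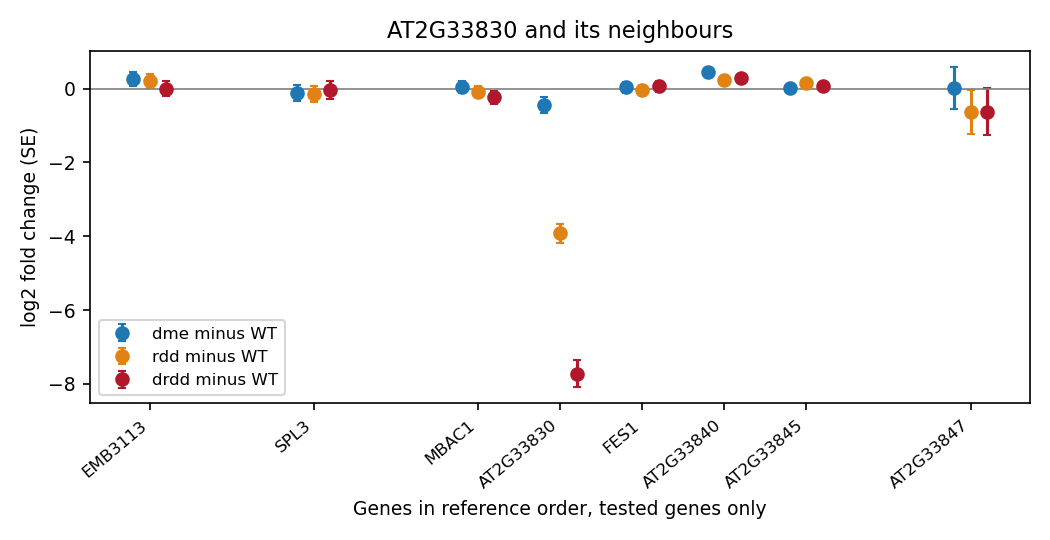
Log2 fold change with SE against WT for AT2G33830 and the 7 tested genes among its 10 nearest neighbours, in gene order. The neighbours lie between −0.63 and 0.46, while AT2G33830 lies at −3.92 in rdd and −7.72 in drdd.

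Genes that respond to darkness and starvation, as AT2G33830 does, were read from a list of 15. Of these, 13 were tested and 0 were called in edgeR or DESeq2 in any comparison (3 in rdd and 1 in drdd at an unadjusted p under 0.05), with a median log2 fold change of −0.16 in rdd and −0.10 in drdd against −0.01 for all genes in rdd. DIN10, a raffinose synthase homologue raised in darkness, had 74 ± 29.1 CPM in WT, 106 ± 20 in rdd and 61.6 ± 25.7 in drdd. SEN1, a gene induced in dark-treated and ageing leaves, had 2.08 ± 1.37 CPM in WT, 3.7 ± 2.09 in rdd and 5.36 ± 1.72 in drdd. ASN1, an asparagine synthetase induced by low sugar, had 0.504 ± 0.24 CPM in WT, 3.66 ± 1.65 in rdd and 1.15 ± 1.22 in drdd. Against WT, DIN10, SEN1 and ASN1 had the highest log2 fold changes of the list in rdd, at 0.52, 0.83 and 2.83. They do not stand for the list, whose lowest value in rdd was −0.63 and whose median was below 0. The summed level of the list overlapped between genotypes, at 252 to 720 CPM in WT, 331 to 425 in rdd and 294 to 494 in drdd. WT A had the highest sum of the list and also the highest level of AT2G33830. In dme, library A had the lowest sum, 312 CPM, and the highest level of AT2G33830, 149 CPM. In rdd, library C had the highest sum, 425 CPM, and the lowest level of AT2G33830, 7.83 CPM. In drdd, library B was lowest in both, at 294 and 0.462 CPM. The part of the list in the level of AT2G33830 was not tested.

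**Figure D5:**
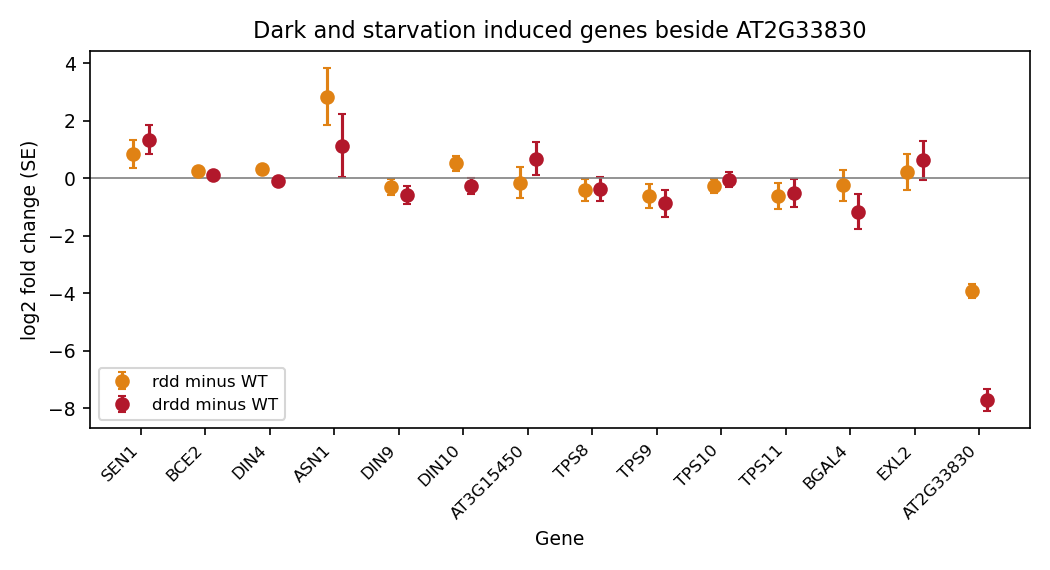
Log2 fold change with SE in rdd and drdd against WT for the 13 tested dark and starvation induced genes, with AT2G33830 at the right. The 13 genes lie between −1.17 and 2.83 with 0 called, and AT2G33830 lies at −3.92 and −7.72.

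A list of 13 genes held SnRK1 subunits, bZIP factors that act with the kinase, and TPS1; all 13 were tested, and 1, TPS1, was called. TPS1, the trehalose-6-phosphate synthase whose product restrains SnRK1, rose in rdd to 92.3 ± 14.9 CPM, from a WT level of 61.3 ± 8.25 (log2 0.59, SE 0.12, adjusted p = 0.0355 in edgeR), and stood at 74.9 ± 7.22 in drdd. This call was lost under 9 of 20 alternatives, the compared libraries alone and the omission of WT A, WT B, WT C, dme A, rdd A, rdd C, rdd D or drdd D (highest adjusted p = 0.131). KIN10, the main catalytic subunit, had 59.5 ± 3.45 CPM in WT, 59.5 ± 3.39 in rdd and 64.2 ± 3.42 in drdd. Of 14 bud dormancy and strigolactone genes, 7 were tested and 0 were called in edgeR in any comparison, with 1 each in rdd and drdd against WT at an unadjusted p under 0.05 and 1 called by DESeq2, between drdd and rdd. BRC1, the TCP factor that holds axillary buds dormant, had at most 0.0983 CPM as a genotype mean, and MAX2, the F-box protein of strigolactone signalling, had 29.3 ± 5.33 CPM in WT and 33.6 ± 7.78 in drdd.

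Of 14 auxin-induced genes, 13 were tested, with a median log2 fold change of −0.01 in rdd and 0.46 in drdd against WT. The 1 called was IAA14, an Aux/IAA repressor, which was higher in drdd than in dme (log2 2.68, SE 0.46, adjusted p = 0.00831 in edgeR), at 11.3 ± 8.09 against 1.75 ± 0.761 CPM. The call was lost with the compared libraries alone and without drdd C, where the adjusted p was at most 0.0799. Of 11 clock genes, ELF3, a component of the evening complex, fell from 105 ± 4.74 CPM in WT to 81.5 ± 1.47 in drdd (log2 −0.37, SE 0.08, adjusted p = 0.0344 in edgeR). Between drdd and dme ELF3 also fell (log2 −0.39, adjusted p = 0.0209 in edgeR), while the clock genes GI and PRR7 rose (log2 1.79 and 1.46, adjusted p = 0.0171 and 0.0329 in edgeR). The ELF3 call against WT was lost under 14 of 20 alternatives, which were no filter, the replicate block, the compared libraries alone and the omission of any WT library, any drdd library, dme B, rdd A, rdd C or rdd D. Between drdd and dme ELF3 lost it without dme B, drdd B or drdd C, GI without dme B, dme D or drdd C, and PRR7 without dme A, dme B, dme D, rdd C, drdd B or drdd C. All 3 also lost it with the replicate block (adjusted p = 0.0585, 0.0723 and 0.0683 in edgeR) and with the compared libraries alone (0.163, 0.104 and 0.179).

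Response programmes that differ between plants were read beside the family. The 12 salicylic acid defence genes summed to 193 to 2393 CPM in WT and 136 to 1170 in rdd, with WT A, WT C and rdd B high. In WT, A and C were also the libraries with the highest ratio of AT2G33830 to AT1G28330, 1.85 and 2.12 against 1.29 and 1.13 in B and D. In rdd, B also had the highest ratio, 0.125, against 0.123 in D. In dme, C had the highest defence sum, 956 CPM, and a ratio of 1.16, below the 1.53 of A. In drdd, B had the highest defence sum, 403 CPM, and the lowest ratio, 0.00481. The part of defence in that ratio was not tested. The 9 rapid touch genes summed to 1769 CPM in dme C and 1011 in drdd C, against 160 at most in WT, with 1 called, DREB1A, in drdd against rdd and against dme (lost under 11 and 14 of 20 alternatives). Every drdd sum of the touch genes, 171 to 1011 CPM, was above every WT sum, 77.1 to 160 CPM. Their median log2 fold change against WT was 2.44 in drdd, with 0 called in edgeR or DESeq2 and 6 of 9 at an unadjusted p under 0.05, and 2.15 in dme, with 0 called by either and 8 of 9 at that level. In rdd the median was −0.52. The part of the touch programme in the level of AT2G33830 was not tested. The 6 senescence genes tested had a median of −0.71 in rdd and −0.09 in drdd, with 0 called in edgeR or DESeq2 and 0 at an unadjusted p under 0.05.

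Cell type markers were read beside these levels. The 5 xylem markers had a median log2 fold change of 0.85 in rdd and 1.04 in drdd, with 0 called in edgeR, 3 in each at an unadjusted p under 0.05 and 1 called by DESeq2 in drdd. They summed to 54.1 to 82.1 CPM in WT, 74.9 to 127 in rdd and 58.7 to 140 in drdd. Of the 6 guard cell markers 1 was called, FMA, which sets the last step of guard cell differentiation and fell in drdd from 34.8 ± 5.22 to 18.7 ± 5.74 CPM (log2 −0.89, SE 0.19, adjusted p = 0.0306 in edgeR), a call lost with the compared libraries alone and without WT B, WT C, dme B, drdd B or drdd D. The guard cell markers as a set had a median log2 fold change of 0.05 in drdd against WT, with FMA lowest and 0.32 highest. Their sums overlapped, at 109 to 139 CPM in WT and 93.3 to 126 in drdd. In rdd the guard cell markers had a median log2 fold change of 0.29 against WT (0.21 to 0.79). Of these, 0 were called in edgeR or DESeq2 and 2 had an unadjusted p under 0.05. The rdd sums were 139 to 166 CPM. The 4 phloem markers summed to 490 to 618 CPM in WT, 458 to 646 in rdd and 543 to 632 in drdd, and the 4 tested epidermis and trichome markers had medians of 0.44 and 0.57. The 6 mesophyll markers summed to 35320 to 43953 CPM in WT, 44862 to 51246 in dme, 38116 to 44040 in rdd and 26094 to 35878 in drdd. By this sum the drdd libraries, in which AT2G33830 was lowest, were below all dme and rdd libraries. By the mean log2 CPM of the 6 markers they overlapped, at 10.20 to 10.81 in drdd, 10.44 to 11.26 in dme and 10.67 to 10.76 in rdd. The median log2 fold change of the 6 was −0.29 between drdd and dme (−1.22 to 0.66) and −0.08 between drdd and rdd (−0.94 to 0.66). Of these markers 2 were called, both between drdd and dme. CA1, a chloroplast carbonic anhydrase, fell (log2 −1.22, SE 0.22, adjusted p = 0.0115 in edgeR), a call lost with the compared libraries alone and without drdd B or drdd C. RCA, the activase of Rubisco, also fell (log2 −0.91, SE 0.22, adjusted p = 0.0448 in edgeR), a call lost under 13 of 20 alternatives. The part of these cell types in the level of AT2G33830 was not tested.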

How the data were processed

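RNA-seq libraries of WT, dme, rdd and drdd leaves were compared. The authors deposited whole-number read counts per gene for each library. The submitters' processing notes name FastQC, Trim Galore, STAR, HTSeq and DESeq2 without versions. Build, annotation and strand setting were not given in the sources used here, so reads of overlapping genes on opposite strands cannot be told apart. Summary lines that name no gene were left out (reads meeting no gene, 1.54% to 2.17%). The authors also deposited DESeq2 tables with, per the file headers, the mean signal (counts over size factors), log2 fold change, Wald score and p-value.

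Counts were tested with edgeR 4.0.16 in R 4.3.3 (filterByExpr with a minimum count of 10 and smallest group of 3, TMM factors 0.953 to 1.09, 1 quasi-likelihood fit over all 15 libraries, 11 residual degrees of freedom, Benjamini-Hochberg adjusted p under 0.05). The SE is the log2 fold change divided by the square root of F, and 95% intervals use these degrees of freedom. Tested alternatives were RLE size factors, no filter, DESeq2 1.42.0, a replicate block, the compared libraries alone and each library left out. The interaction is drdd minus rdd less dme minus WT. log2 CPM used a prior count of 2, and 100000 permutations where enumeration was not exact. Called genes of the lists were put through the same alternatives, a choice made after seeing the data. The fit was tested on simulated data. No library was a copy of another of the same genotype (lowest chi-square per degree of freedom 6.83 over 21 pairs), and pairs across genotypes were not compared.

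The members and gene lists were chosen with earlier results of these data known. Named genes are all members, the mutated genes, the 5 most alike per member, 5 neighbours on each side and up to 3 called genes per list and comparison; the uncalled list genes DIN10, SEN1, ASN1, KIN10, BRC1 and MAX2, the called cell type markers FMA, CA1 and RCA and the example levels were picked after their values were seen. Gene names, coordinates and sequences came from RefSeq TAIR10.1, which matched 37051 of 37336 identifiers.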

Additional observations from a re-analysis of the deposited data

Results flagged for a closer look

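The difference between drdd and rdd in AT2G33830 was not the difference between dme and WT: the interaction was −3.35 on the log2 scale (SE 0.41), and the interaction term of the edgeR fit brought it up for a closer look. Levels were 162 ± 41.7 CPM in WT (n = 4), 119 ± 26.5 in dme (n = 4), 10.6 ± 2.47 in rdd (n = 4) and 0.809 ± 0.316 in drdd (n = 3). The drdd values come from 29 counts in all. The gene was chosen with this difference known, so it is given as a description. In 9 groups of 4 libraries tested for a library far from the others, none was found for the 3 members past the count filter.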

How the results depend on the processing

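Of 357 values for 18 member differences under up to 20 alternatives, 352 kept direction and side of the threshold, 2 newly passed it and 3 changed sign. All values of AT2G33830 were among the 352, and nothing is read from them, since its differences led to the choice of the family. The number of members called in rdd against WT was 1, and 2 under DESeq2 (AT1G56220, −0.65, adjusted p = 0.0232). With single libraries left out it was 1 to 2, the latter without dme C (AT1G56220, −0.64, adjusted p = 0.0473 in edgeR). The counts of members called in the other comparisons held under every alternative run. Where a member was called in them, it was AT2G33830. AT1G28330 in rdd ran from −0.14 (without WT C) and −0.11 (without rdd C) to 0.14, and AT1G56220 between drdd and dme from −0.28 to 0.014 (without dme D). AT2G33830 ranged from −4.06 to −3.75 in rdd, −7.99 to −7.35 in drdd, −4.07 to −3.43 between drdd and rdd and −3.64 to −2.98 for the interaction. The causes were not tested.

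Deviations of 21 same-letter pairs correlated from −0.495 to 0.43, 8 of them over 0.1. Pairs with different letters were not compared, so whether the letters pair the libraries was not tested. With a replicate block AT2G33830 was at −3.91 in rdd and −7.62 in drdd. No member call changed, AT2G33830 being the 1 member called. Nothing is read from this for AT2G33830, since its differences led to the choice of the family. Over all genes, calls in rdd against WT went from 200 to 111 with the block and to 632 with DESeq2, in drdd from 251 to 139 and 636, and between drdd and rdd from 87 to 50 and 378. Between drdd and dme they went from 420 to 225 and 991, and for the interaction from 20 to 12 and 183. With the compared libraries alone they were 0 for dme, 220 for rdd and 111 for drdd against WT, 50 for drdd against rdd and 134 for drdd against dme. Leaving out 1 library gave 2 to 3 for dme, 93 (without rdd D) to 327 (without rdd B) for rdd and 105 (without drdd C) to 318 (without dme C) for drdd against WT. It gave 19 (without drdd C) to 126 (without dme C) for drdd against rdd, 126 (without drdd C) to 494 (without WT A) for drdd against dme and 6 (without drdd C) to 45 (without drdd D) for the interaction. Depth limits AT2G33830 in drdd, AT1G54070 and AT5G44300, which rest on 29, 19 and 0 counts.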
